A study of Homo sapiens with 18 samples.

Results

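Homologous recombination and Fanconi anaemia genes were followed across all 18 RNA-seq libraries of the series. The group was defined by name and holds 31 of the 27968 gene symbols in the files. Each of the 31 reached a CPM (counts scaled to the library size) of at least 1 in 3 or more libraries of each line, so all 31 were tested in both lines. The cells were A549 (an established line from a lung carcinoma) or MDA-MB-231 (from a breast carcinoma), in 6 groups of 3 libraries. A549 cells had received BLM siRNA1, BLM siRNA2, BLM siRNA3 or a control siRNA, and MDA-MB-231 cells BLM siRNA1 or a control siRNA. BLM encodes a RecQ helicase that works with topoisomerase III alpha to dissolve double Holliday junctions. The labels describe flat cultures at 80% confluence as well as 3D cultures on day 4 without tying either to a library, and they do not say whether replicate libraries stem from independent cultures. P-values therefore reflect library-to-library spread only, possibly technical. That siRNA1 names the same molecule in both lines is assumed from its label.

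Homologous recombination repairs a broken chromosome by copying an intact sister. The break ends are resected to single strands, BRCA2 with PALB2 and BRCA1 prepares them for pairing, the BCDX2 and CX3 complexes assist, and RAD54 motors drive strand exchange. The Fanconi anaemia pathway unhooks DNA interstrand crosslinks: a core complex with the E2 enzyme UBE2T attaches ubiquitin to the FANCD2 and FANCI pair, USP1 removes it, and nucleases and recombination complete the repair. Both pathways act mainly in S and G2 phase, when a sister chromatid is present.

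BLM itself had 1.2, 1.18 and 1.17 CPM with siRNA1, 10.01, 10.5 and 10.9 CPM with siRNA2, and 6.37, 6.17 and 6.97 CPM with siRNA3, against 80.2, 83.1 and 72.7 CPM in A549 controls. In MDA-MB-231 it had 5.25, 5.08 and 5.18 CPM with siRNA1, against 33.5, 35.5 and 35.9 CPM in controls. BLM was below its control in every siRNA library. Total expected counts ran from 30143047 to 40328208 per library. Of 4 epithelial markers, KRT8 and KRT18 averaged at least 583 TPM in the controls of both lines, whereas EPCAM averaged 2.69 TPM in A549 controls and CDH1 1.93 TPM in MDA-MB-231 controls. All 4 were higher in A549 siRNA1 and 3 with siRNA2, whereas with siRNA3 1 was lower and none higher. CDH1 averaged 68.5, 72.7 and 1.49 TPM in A549 with siRNA1, siRNA2 and siRNA3, against 17.65 TPM in controls. In MDA-MB-231 siRNA1, 2 of the 4 were lower and none higher. Of the mesenchymal markers VIM and FN1, 1 was higher in A549 siRNA1, 2 with siRNA2 and 1 with siRNA3, and none lower. FN1 averaged 817, 627 and 93.4 TPM in A549 with siRNA1, siRNA2 and siRNA3, against 110 TPM in controls. VIM averaged 940, 1169 and 1730 TPM, against 815 TPM in controls. In MDA-MB-231 siRNA1, 1 of these 2 was lower and 1 higher. The part of these markers in other results was not tested. The lung lineage factor NKX2-1 and the surfactant genes SFTPA1, SFTPB and SFTPC were at or near 0 in A549, although NKX2-1 averaged 2.28 TPM with siRNA1 and 6.76 TPM in controls of the breast line. The leukocyte genes PTPRC and CD3E were near 0 in both lines. A549 siRNA3 replicate 3 stood apart from its group. The SD of its genes' log2 deviations from the group mean was 0.256, against 0.0926 to 0.172 in the other 17 libraries. Its deviation ran with the listed transcript length (Spearman's rho across genes -0.678, a description). For siRNA3 against control, the median and the calls that changed are therefore also given without it.

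In A549 cells with siRNA1, 28 of the 31 genes were lower than in the control and none was higher, at an adjusted p under 0.05 (edgeR quasi-likelihood test, Benjamini-Hochberg over all genes tested). Among all 14098 genes tested in that comparison, 35.6% were lower and 38.8% higher. The median log2 fold change of the 31 genes was -2.12, beside 0.04 over all genes, and 21 of the 31 were below -1. On log2 TPM with a pseudocount of 1 the medians were -1.39 for the 31 genes and 0.25 for all genes. With siRNA2, 26 genes were lower and none higher, with a median of -0.66, against a background of 32.6% lower and 31.6% higher. With siRNA3, 25 were lower and none higher, with a median of -0.84, against a background of 32.3% lower and 32% higher. In MDA-MB-231 with siRNA1, 25 were lower and none higher, with a median of -0.60, where 29.8% of 13572 genes were lower and 29.9% higher. RAD52, RAD50 and FAN1 did not pass the test in any of the 4 comparisons, although other scalings called RAD52 higher in A549 siRNA1 (log2 TPM) and lower with siRNA3 (DESeq2 size factors, upper quartile) and FAN1 higher in MDA-MB-231 (log2 TPM, upper quartile). The fit of only the 2 groups called RAD50 lower with siRNA2, at -0.19 (adjusted p = 0.0153, edgeR). In each of the 4 comparisons 0 genes were higher in edgeR, also at an unadjusted p under 0.05, and 0 in the DESeq2 Wald test and in limma-voom. The 3 A549 comparisons share their control libraries, so their counts are not independent of each other.

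**Figure D1:**
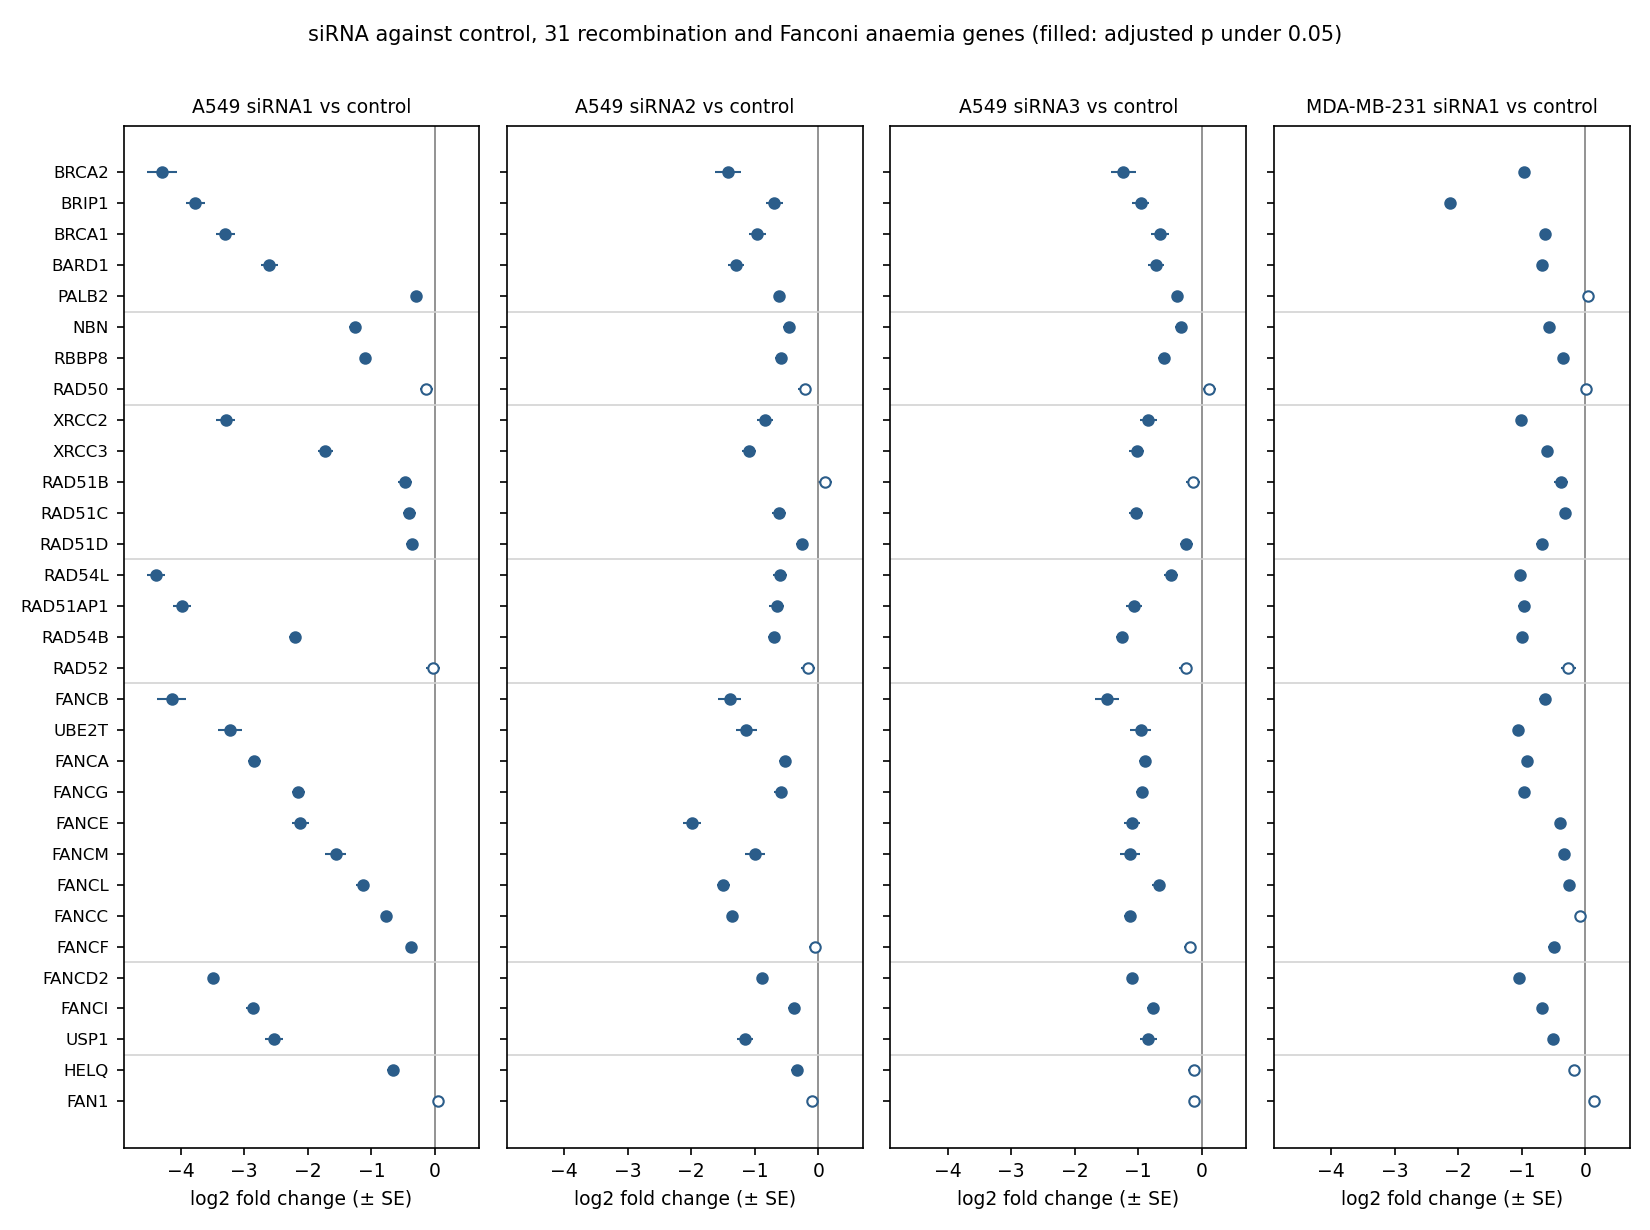
Log2 fold changes (± SE) of the 31 genes, grouped by role, in 4 panels: A549 siRNA1, siRNA2 and siRNA3 and MDA-MB-231 siRNA1, each against the control of its line (n = 3 libraries a group), with filled points for genes past an adjusted p of 0.05. Filled points lie left of 0 in every panel, 28 in A549 siRNA1 and 25 in MDA-MB-231 siRNA1, and the points of RAD52, RAD50 and FAN1 near 0 are unfilled in all 4.

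Summed over the 31 genes, expression was 433 to 484 TPM (a level scaled to transcript length) in the A549 siRNA1 libraries, 749 to 781 TPM with siRNA2 and 630 to 744 TPM with siRNA3, against 1137 to 1239 TPM in A549 controls. These sums were 38.1%, 64.7% and 59.2% of the control mean for siRNA1, siRNA2 and siRNA3. In MDA-MB-231 the sum was 722 to 729 TPM with siRNA1, against 1039 to 1106 TPM in controls, or 68.01% of the control mean. The sums of the siRNA libraries did not overlap those of their controls in either line. In bulk RNA, fewer cells expressing these genes and less RNA per cell cannot be told apart.

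Because the 31 genes moved largely in 1 direction, their promoters were searched for the sequences through which cell cycle factors are known to bind. RefSeq promoter windows (GRCh38.p14, 250 bases before to 50 after the start) were found for 28 of the 31 genes, all but NBN, RAD54B and FANCI. At least 1 of the E2F-like motifs TTTCCCGC, TTTGGCGC, TTTCGCGC and TTTGCCGC, on either strand, stood in 4 of 28 windows (14.3%), beside 3.31% of all 35116 windows, and the 4 genes were FANCD2, XRCC2, FANCC and FANCA. TTTCCCGC alone stood in 3 of 28 (10.7%), beside 1.63% of all windows. The CHR motif TTTGAA stood in 14.3% of the 28, beside 15.2% of all, and the CCAAT box in 39.3%, beside 34.6%. A match is a description of letters, and none is shown here to be a binding site. The 35116 windows include those of genes not tested here, whereas the 28 all passed the expression filter. The 2 sets are therefore unlike, and whether their shares differ was not tested. The first 2 windows, FANCD2 and XRCC2, were chosen after the search. Of the 3 genes with TTTCCCGC they had the lowest log2 fold change averaged over the 4 siRNA comparisons, -1.63 and -1.50. The third, FANCC, had an average of -0.84 and 2 E2F-like matches and is not shown. FANCD2 and XRCC2 hold TTTCCCGC on the minus strand of the gene, which reads as the capitals. FANCD2 (chr3:10026187-10026486, plus strand) carries it across the start, at window bases 249 to 256, and XRCC2 (chr7:152676092-152676391, minus strand) from 21 bases after the start, at window bases 272 to 279.
FANCD2: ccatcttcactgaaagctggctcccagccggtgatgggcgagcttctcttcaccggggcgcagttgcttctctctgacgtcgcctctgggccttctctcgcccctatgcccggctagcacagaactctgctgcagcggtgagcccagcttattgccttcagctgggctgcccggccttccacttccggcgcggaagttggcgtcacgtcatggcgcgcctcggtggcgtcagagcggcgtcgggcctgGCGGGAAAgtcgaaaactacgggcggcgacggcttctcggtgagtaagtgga
XRCC2: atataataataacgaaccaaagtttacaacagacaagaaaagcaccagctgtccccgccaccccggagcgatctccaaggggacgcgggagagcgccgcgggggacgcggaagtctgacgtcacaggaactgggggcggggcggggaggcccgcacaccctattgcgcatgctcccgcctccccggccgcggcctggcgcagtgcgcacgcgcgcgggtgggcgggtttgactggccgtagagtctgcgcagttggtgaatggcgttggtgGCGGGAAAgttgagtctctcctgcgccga
The next 2 windows belong to BRCA2 (chr13:32315258-32315557, plus strand) and FANCB (chrX:14873020-14873319, minus strand), the genes with the lowest log2 fold change averaged over the 4 siRNA comparisons, -1.98 and -1.92. They hold none of the 6 motifs.
BRCA2: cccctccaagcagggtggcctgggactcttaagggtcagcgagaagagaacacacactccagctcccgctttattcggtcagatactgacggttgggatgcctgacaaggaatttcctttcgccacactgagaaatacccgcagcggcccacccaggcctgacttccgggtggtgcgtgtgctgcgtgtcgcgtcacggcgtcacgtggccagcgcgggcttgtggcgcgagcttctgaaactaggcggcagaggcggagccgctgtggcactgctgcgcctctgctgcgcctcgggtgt
FANCB: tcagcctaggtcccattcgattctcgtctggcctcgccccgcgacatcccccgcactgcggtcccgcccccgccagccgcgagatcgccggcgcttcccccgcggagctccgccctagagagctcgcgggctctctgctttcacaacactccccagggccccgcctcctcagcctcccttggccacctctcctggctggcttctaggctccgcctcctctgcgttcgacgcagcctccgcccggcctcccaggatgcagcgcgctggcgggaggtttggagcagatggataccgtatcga
The last 2 belong to RAD50 (chr5:132556727-132557026, plus strand) and FAN1 (chr15:30903602-30903901, plus strand), the genes with the highest averages, -0.06 and -0.01. They hold none of the 6 motifs either.
RAD50: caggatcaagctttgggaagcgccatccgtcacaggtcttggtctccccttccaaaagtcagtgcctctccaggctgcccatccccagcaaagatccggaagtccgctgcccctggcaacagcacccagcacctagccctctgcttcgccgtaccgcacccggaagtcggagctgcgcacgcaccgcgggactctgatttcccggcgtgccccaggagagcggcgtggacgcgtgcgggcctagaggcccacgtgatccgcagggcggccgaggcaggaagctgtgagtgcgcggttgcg
FAN1: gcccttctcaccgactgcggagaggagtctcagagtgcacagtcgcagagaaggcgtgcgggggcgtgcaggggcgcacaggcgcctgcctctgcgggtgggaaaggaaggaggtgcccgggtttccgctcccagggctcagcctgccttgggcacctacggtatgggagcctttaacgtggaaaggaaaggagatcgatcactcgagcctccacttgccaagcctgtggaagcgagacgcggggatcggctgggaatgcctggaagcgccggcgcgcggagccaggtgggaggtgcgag

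The strand exchange motor RAD54L had the lowest log2 fold change of the 31 genes in A549 siRNA1. It had 0.848, 0.909 and 1.34 CPM with siRNA1, against 20.3, 22.3 and 22.5 CPM in controls. All 3 siRNA1 libraries were near 1 CPM and all 3 controls above 20. The log2 fold change was -4.40 ± 0.14 (SE; adjusted p = 1.60e-11, edgeR). BRCA2, a mediator of strand invasion, had 2.79, 3.72 and 2.05 CPM with siRNA1, against 60.4, 52.1 and 55.6 CPM in controls, a log2 fold change of -4.29 ± 0.24 (adjusted p = 3.12e-09, edgeR), and alternatives gave -4.54 to -2.68. FANCB, a scaffold subunit of the Fanconi core complex, had 1.55, 1.47 and 0.819 CPM with siRNA1, against 24.8, 23.4 and 19.9 CPM in controls, or -4.14 ± 0.23 on the log2 scale (adjusted p = 2.66e-09, edgeR). For these 3 genes the groups did not overlap, and each siRNA1 library lay far below each control. Lack of overlap was common: 28 of the 31 genes lay wholly below the controls, beside 38.1% of all 14098 genes below and 41.1% above.

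All 5 genes of the BRCA1 complex and its mediators were lower in A549 siRNA1. The ubiquitin ligase BRCA1, at -3.30 ± 0.15 on the log2 scale, its partner BARD1, at -2.60 ± 0.14, and the helicase BRIP1, at -3.77 ± 0.15, lay with BRCA2 well below PALB2, at -0.29 ± 0.07. PALB2 bridges BRCA1 and BRCA2, and its level was 81.7% of control, where BRCA1 was at 10.2%. The adjusted p of PALB2 was 0.00236 (edgeR). On log2 TPM with a pseudocount of 1, PALB2 was at -0.02 and was not called (limma, adjusted p = 0.827).

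The 5 genes of the BCDX2 and CX3 complexes were all lower in A549 siRNA1 but by very different amounts. XRCC2 was at -3.29 ± 0.15 on the log2 scale and XRCC3 at -1.72 ± 0.11. RAD51B, RAD51C and RAD51D lay between -0.47 and -0.36. Subunits of BCDX2 (RAD51B, RAD51C, RAD51D, XRCC2) therefore had log2 fold changes from -3.29 to -0.36. RAD51D was not called on log2 TPM with a pseudocount of 1, at -0.07 (limma, adjusted p = 0.615). Among the strand exchange partners, RAD51AP1, which stimulates joint molecule formation, was at -3.99 ± 0.14 and the RAD54-family motor RAD54B at -2.20 ± 0.10. RAD52, the annealing protein, was the exception. It had 11.4, 11.4 and 11.5 CPM with siRNA1, against 11.9, 10.5 and 12.6 CPM in controls. The groups overlapped, and the log2 fold change of -0.03 ± 0.11 had a 95% interval of -0.24 to 0.18 (1.96 SE). On log2 TPM with a pseudocount of 1, RAD52 was instead called higher, at 0.28 (limma, adjusted p = 0.0269).

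All 9 core complex genes were lower in A549 siRNA1, with a median log2 fold change of -2.12. After FANCB came the E2 enzyme UBE2T, at -3.23 ± 0.19, and the subunits FANCA, at -2.84 ± 0.10, FANCG, at -2.15 ± 0.10, and FANCE, at -2.12 ± 0.14. The DNA-binding translocase FANCM was at -1.56 ± 0.16 and the ubiquitin ligase FANCL at -1.13 ± 0.10. FANCC and FANCF, which sit with FANCE and FANCG in the complex, were at -0.77 ± 0.08 and -0.37 ± 0.09. FANCF was not called on log2 TPM with a pseudocount of 1, at -0.095 (limma, adjusted p = 0.453). The pair that the core complex ubiquitinates was lower too, with FANCD2 at -3.49 ± 0.08 and FANCI at -2.87 ± 0.10, as was the deubiquitinase USP1, at -2.53 ± 0.14. Expected counts of FANCI, FANCA, FANCL, RAD51D, FAN1, RAD54B and RAD50 were not whole in 33.3% to 100% of libraries, which marks reads shared with other transcripts, and the rounding moved each by at most 0.5 reads.

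Of the resection genes, NBN was at -1.26 ± 0.10 and RBBP8, which encodes CtIP, at -1.10 ± 0.09. RAD50, the ATPase that forms the MRN complex with NBN and MRE11, had 176, 197 and 168 CPM with siRNA1, against 207, 198 and 189 CPM in controls. Its groups overlapped, at -0.14 ± 0.10 with a 95% interval of -0.33 to 0.06. Of the crosslink processing genes, the helicase HELQ was lower, at -0.66 ± 0.09. The nuclease FAN1 had 47.8, 46.3 and 46 CPM with siRNA1, against 47.9, 44.4 and 43.3 CPM in controls. FAN1 had the highest log2 fold change of the 31, at 0.05 ± 0.08 with a 95% interval of -0.10 to 0.20, and its groups also overlapped.

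**Figure D2:**
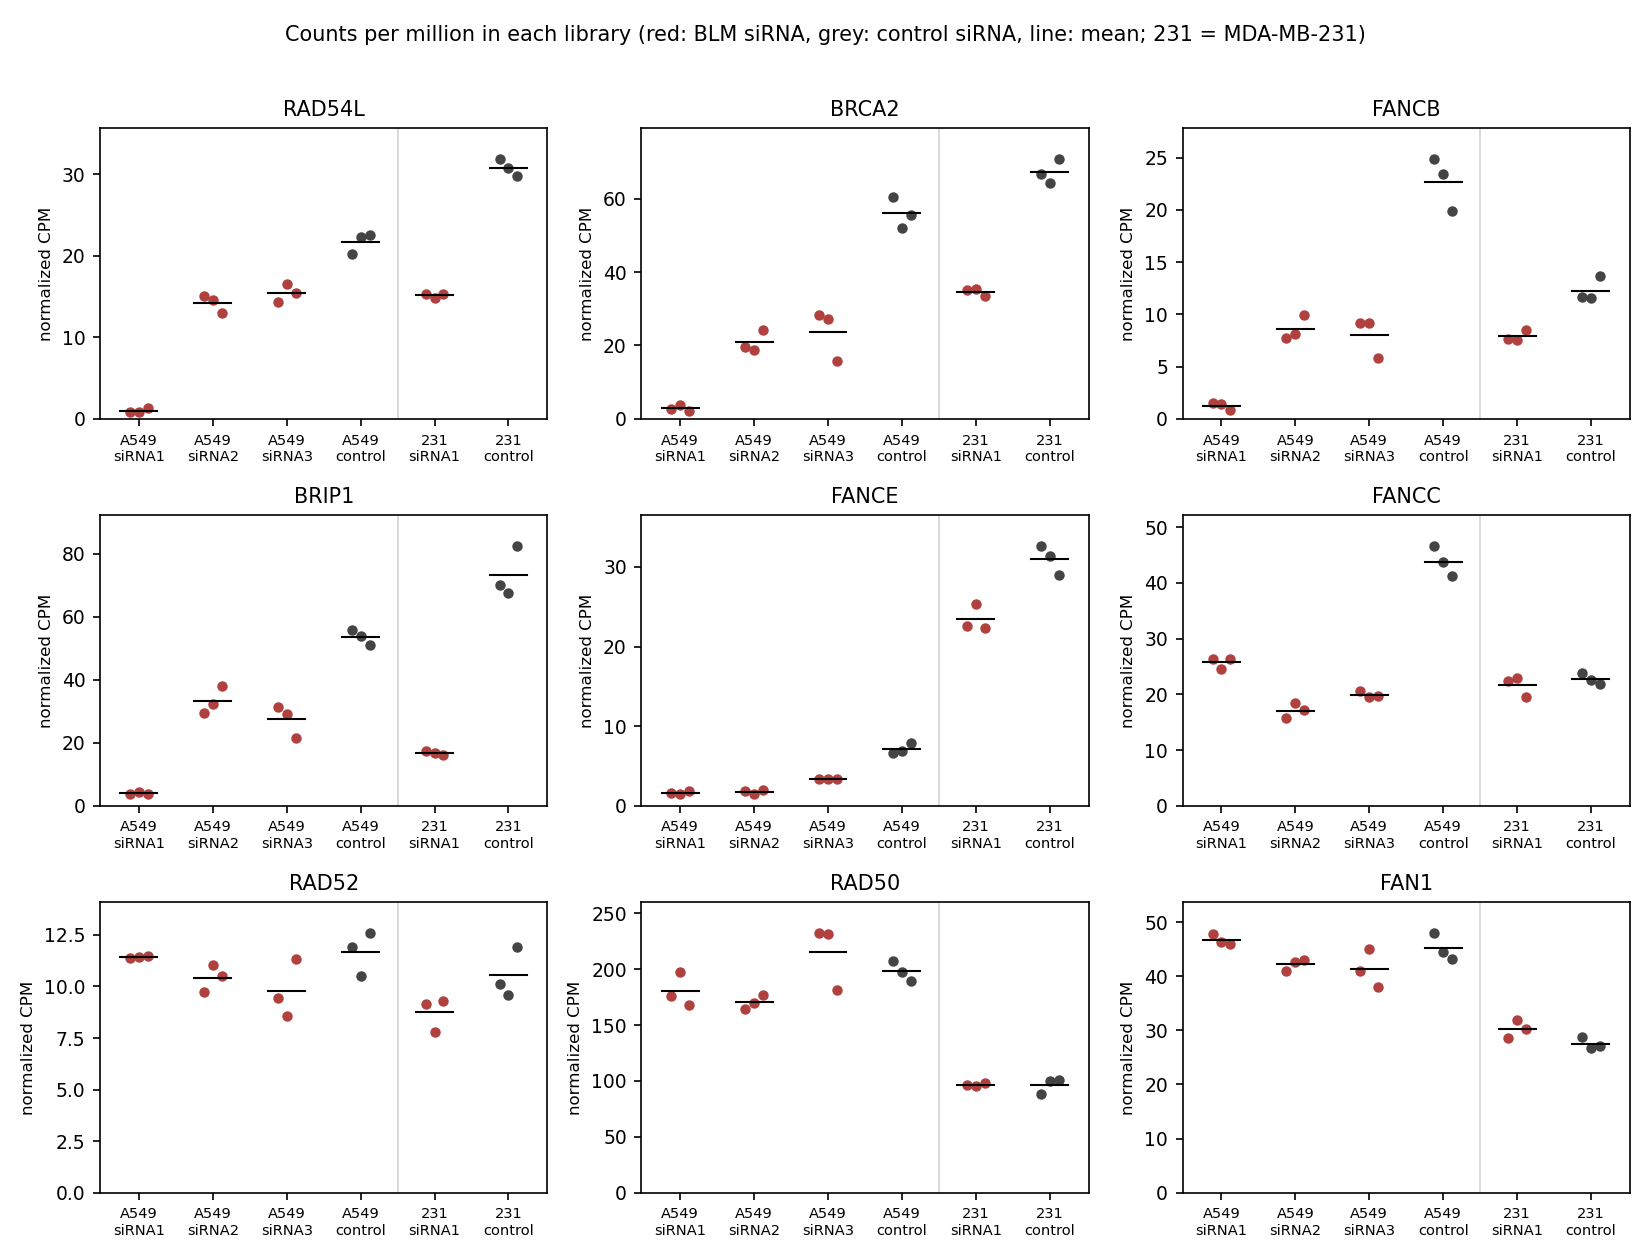
CPM of 9 genes in each of the 18 libraries, by group, with siRNA groups left of the control of their line and lines at the group mean. RAD54L, BRCA2 and FANCB are near the axis in all A549 siRNA1 libraries, BRIP1 is low with siRNA1 in both lines, FANCE is low with both siRNA1 and siRNA2 in A549, and RAD52, RAD50 and FAN1 overlap between A549 siRNA1 and control.

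With siRNA2 the lowest gene was FANCE, a core complex subunit that contacts FANCD2. It had 1.92, 1.51 and 1.95 CPM with siRNA2, against 6.66, 6.89 and 7.87 CPM in controls, with no overlap. The log2 fold change was -1.99 ± 0.14 (adjusted p = 6.13e-08, edgeR). FANCL, the ligase of the core complex, had 13, 14.7 and 15 CPM with siRNA2, against 40.9, 43.1 and 36.1 CPM in controls, or -1.49 ± 0.10. BRCA2 had 19.7, 18.9 and 24.2 CPM with siRNA2, against the control values above, or -1.42 ± 0.20 (adjusted p = 3.80e-05, edgeR). Every siRNA2 library was below every control for these 3 genes. That held for 28 of the 31 genes, and for 38% of all 14098 genes, with 36.5% wholly above the controls. By role, all 5 genes of the BRCA1 complex and mediators were lower, from -1.42 to -0.62, as were 4 of 5 BCDX2 and CX3 genes, 3 of 4 strand exchange partners, all 3 of FANCD2, FANCI and USP1, and 2 of 3 resection genes. The core complex had 8 of 9 genes lower and a median of -1.13, and the strand exchange partners a median of -0.63.

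The genes at the other end with siRNA2 were RAD51B, FANCF and FAN1, and none of the 3 passed the test. RAD51B had 8.75, 9.68 and 8.54 CPM with siRNA2, against 8.9, 9.0 and 7.15 CPM in controls, or 0.11 ± 0.11 (95% interval -0.10 to 0.32). FANCF had 16.8, 16.2 and 19.3 CPM with siRNA2, against 17.9, 19.2 and 17.1 CPM in controls, or -0.06 ± 0.09 (95% interval -0.23 to 0.12). The siRNA2 libraries overlapped the controls for both genes. FAN1 had 40.9, 42.7 and 43 CPM with siRNA2, all 3 just below the control values above, or -0.10 ± 0.08 (adjusted p = 0.27, edgeR). RAD52 and RAD50 also did not pass, at -0.16 ± 0.11 and -0.22 ± 0.10. RAD51D passed at -0.26 ± 0.10 (adjusted p = 0.0343, edgeR), but without siRNA2 replicate 3 it was at -0.14 and did not pass, and leaving out other single libraries also ended its call with siRNA2 and with siRNA3. HELQ passed at -0.34 ± 0.09 and did not without siRNA2 replicate 3, at -0.21.

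With siRNA3 and all its libraries, replicate 3 included, the lowest genes were FANCB, RAD54B and BRCA2. FANCB had 9.14, 9.2 and 5.82 CPM with siRNA3, against the control values above, or -1.49 ± 0.19 (adjusted p = 1.32e-05, edgeR). RAD54B had 24.2, 23.4 and 26.3 CPM with siRNA3, against 59.9, 60.9 and 55 CPM in controls, or -1.25 ± 0.09. BRCA2 had 28.3, 27.2 and 15.8 CPM with siRNA3, or -1.24 ± 0.20. For FANCB and BRCA2 replicate 3 was the low library of the group. BRCA2 has the longest listed transcript of the 31 genes, and its place among the 3 lowest rests on that library. Alternatives gave -1.36 to -0.98 for BRCA2 and -1.75 to -1.28 for FANCB. For FANCB, RAD54B and BRCA2 the siRNA3 libraries lay below the controls. That held for 27 of the 31 genes, and for 33.9% of all 14098 genes, with 32.6% wholly above the controls. Among the BCDX2 and CX3 genes RAD51C was at -1.03 ± 0.11, and its partner RAD51B did not pass, at -0.14 ± 0.11. By role, all 5 genes of the BRCA1 complex and mediators were lower with siRNA3, as were 4 of 5 BCDX2 and CX3 genes, 3 of 4 strand exchange partners, 8 of 9 core complex genes, all 3 of FANCD2, FANCI and USP1, and 2 of 3 resection genes.

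RAD50, HELQ and FAN1 stood at the upper end with siRNA3, and none of them passed the test. RAD50 had 232, 232 and 181 CPM with siRNA3, or 0.12 ± 0.10 (95% interval -0.07 to 0.31), and its replicate 3 was the low library of the group. HELQ had 11.2, 10.6 and 11.7 CPM with siRNA3, against 12.6, 12 and 12 CPM in controls, or -0.13 ± 0.09 (95% interval -0.30 to 0.05). FAN1 had 40.9, 45.1 and 38 CPM with siRNA3, or -0.13 ± 0.08 (95% interval -0.28 to 0.02). RAD50 and FAN1 overlapped their controls and HELQ did not. Without siRNA3 replicate 3, the median of the 31 genes was -0.72, RAD50 was called higher at 0.26 (adjusted p = 0.00547, edgeR), RAD52 was called lower at -0.34 (adjusted p = 0.00812, edgeR), and RAD51D, at -0.24 with all libraries, no longer passed at -0.13.

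The siRNAs were also compared with each other. In siRNA1 against siRNA2, 22 genes were lower and 3 higher with siRNA1, where 27.7% of all genes were lower and 31.2% higher. The 3 higher genes were FANCC, at 0.59 ± 0.08 (adjusted p = 3.47e-05, edgeR), FANCL, at 0.36 ± 0.10, and PALB2, at 0.33 ± 0.07, so these had their lower level with siRNA2. FANCE had 1.57, 1.5 and 1.86 CPM with siRNA1, beside the siRNA2 values above. The difference of -0.13 ± 0.15 did not pass (adjusted p = 0.474, edgeR), with a 95% interval of -0.42 to 0.16. The widest gap was in RAD54L, at -3.79 ± 0.14, which was at 65.7% of control with siRNA2.

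In siRNA1 against siRNA3, 24 genes were lower and 2 higher with siRNA1, where 34.7% of all genes were lower and 34.4% higher. On log2 TPM with a pseudocount of 1 the split was 19 lower and 5 higher, and without A549 control replicate 3 the fit called 4 higher. The 2 higher genes were FANCC, at 0.37 ± 0.08, and RAD51C, at 0.63 ± 0.11 (adjusted p = 2.12e-04, edgeR). RAD51C belongs to both BCDX2 and CX3. It had 42.9, 41.7 and 39.5 CPM with siRNA1 and 23.7, 24.7 and 31.8 CPM with siRNA3, against 55.9, 59.3 and 48.5 CPM in controls. All siRNA3 libraries were below all siRNA1 libraries for this gene, as they were for 34.7% of all 14098 genes.

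In siRNA2 against siRNA3, 6 genes were lower and 7 higher with siRNA2, where 32.4% of all genes were lower and 29.2% higher. Without siRNA2 replicate 1, 3 were lower. On log2 TPM with a pseudocount of 1 the split was 3 lower and 8 higher, and with upper quartile scaling 3 lower and 10 higher. The lower genes were FANCE, at -0.90 ± 0.14, FANCL, at -0.81 ± 0.11, BARD1, at -0.57 ± 0.13, and RAD50, PALB2 and FANCC, between -0.34 and -0.22. The higher genes were RAD54B, at 0.56 ± 0.09, and RAD51C, RAD51AP1, FANCI, FANCA, FANCG and FANCD2, between 0.20 and 0.41. Of the 9 core complex genes 3 were lower and 2 higher with siRNA2, shares near those of all genes.

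In MDA-MB-231 cells, BRIP1, the helicase that binds BRCA1, had the lowest log2 fold change with siRNA1. It had 17.4, 16.8 and 16.2 CPM with siRNA1, against 70.2, 67.5 and 82.4 CPM in controls. The siRNA1 values were close together and far below every control, at -2.13 ± 0.08 on the log2 scale (adjusted p = 1.10e-07, edgeR). UBE2T had 30.8, 32.4 and 31.7 CPM with siRNA1, against 65.8, 68.1 and 64.2 CPM in controls, or -1.06 ± 0.05. FANCD2 had 41, 40.6 and 40.4 CPM with siRNA1, against 83.8, 86.1 and 81.7 CPM in controls, or -1.04 ± 0.05 (adjusted p = 3.28e-07, edgeR). Neither gene's groups overlapped, and after BRIP1 the genes RAD54L, XRCC2, UBE2T and FANCD2 lay together between -1.06 and -1.02. In this line 27 of the 31 genes lay wholly below the controls, beside 32.6% of all 13572 genes below and 33.1% above.

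All 5 BCDX2 and CX3 genes were lower in MDA-MB-231, from -1.02 for XRCC2 to -0.32 for RAD51C, as were BRCA2, at -0.96 ± 0.06, BRCA1, at -0.64 ± 0.06, and BARD1, at -0.69 ± 0.08. Of the core complex, 8 of 9 genes were lower, all but FANCC, at -0.08 ± 0.08. PALB2 had 32.5, 30.5 and 30.2 CPM with siRNA1, against 29.9, 29.5 and 30.7 CPM in controls, or 0.05 ± 0.06 (95% interval -0.07 to 0.16). RAD50 had 96.2, 95.6 and 98 CPM with siRNA1, against 88.1, 99.7 and 101 CPM in controls, or 0.00 ± 0.06 (95% interval -0.12 to 0.12). FAN1 had 28.5, 31.9 and 30.2 CPM with siRNA1, against 28.8, 26.7 and 27.1 CPM in controls, or 0.13 ± 0.06 (adjusted p = 0.0996, edgeR). For PALB2, RAD50 and FAN1 the libraries of the groups overlapped and none passed the test. RAD52 and HELQ did not pass either, at -0.27 ± 0.11 and -0.17 ± 0.07.

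The siRNA1 effect was then compared between the lines as an interaction, the log2 fold change in A549 minus that in MDA-MB-231. It was lower in A549 for 24 of the 31 genes and higher for 1, where 34.1% of 14896 genes were lower and 29.3% higher. The median of the difference was -1.24 over the 31 genes, beside -0.05 over all genes. FANCB differed most, at -3.54 ± 0.22 (adjusted p = 2.74e-09, edgeR). It had 7.64, 7.6 and 8.52 CPM in MDA-MB-231 with siRNA1, against 11.7, 11.6 and 13.6 CPM in controls, so its MDA-MB-231 groups lay apart but by far less than in A549. RAD54L differed by -3.41 ± 0.15, with 15.4, 14.8 and 15.3 CPM in MDA-MB-231 with siRNA1, against 31.8, 30.8 and 29.8 CPM in controls. BRCA2 differed by -3.37 ± 0.18, with 35.1, 35.3 and 33.4 CPM in MDA-MB-231 with siRNA1, against 66.8, 64.1 and 70.7 CPM in controls. In both lines these genes were lower in every siRNA1 library than in every control, and the size of the drop differed.

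RAD51D, a subunit of the BCDX2 complex, was the 1 gene called higher in the interaction, with a smaller fall in A549. In A549 it had 18.2, 16.2 and 17.8 CPM with siRNA1, against 21.4, 22.7 and 23 CPM in controls, and in MDA-MB-231 5.87, 6.65 and 6.57 CPM with siRNA1, against 10.6, 9.88 and 10.04 CPM in controls. The difference was 0.28 ± 0.11 (adjusted p = 0.0361, edgeR). It did not pass without A549 siRNA1 replicate 1, MDA-MB-231 siRNA1 replicate 1, MDA-MB-231 control replicate 1 or MDA-MB-231 control replicate 2, which left no gene called higher. Its groups did not overlap in either line. RAD52, at 0.20 ± 0.14 (95% interval -0.08 to 0.48), and FANCF, at 0.08 ± 0.12 (95% interval -0.16 to 0.33), were not called different between the lines. In MDA-MB-231, RAD52 had 9.17, 7.81 and 9.32 CPM with siRNA1, against 10.1, 9.58 and 11.9 CPM in controls, without overlap but with a gap smaller than the range of either group. FANCF, the adaptor that ties FANCM to the core complex, had 13.1, 15.2 and 13.6 CPM in A549 with siRNA1, against the A549 control values above, and 5.79, 6.41 and 6.26 CPM in MDA-MB-231 with siRNA1, against 8.76, 8.24 and 8.88 CPM in controls. FANCF was lower with siRNA1 in every library of both lines.

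Across the 31 genes the siRNA1 log2 fold changes of the lines, which share no libraries, had Pearson's r of 0.76 and Spearman's rho of 0.81. These are descriptions across genes, which are not independent replicates, and without BRCA2 and RAD54L they were 0.75 and 0.80. The genes that did not follow the main order were BRIP1, lowest in MDA-MB-231 but above 4 others in A549, and FANCB, among the 3 lowest in A549 and near the middle in MDA-MB-231.

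**Figure D3:**
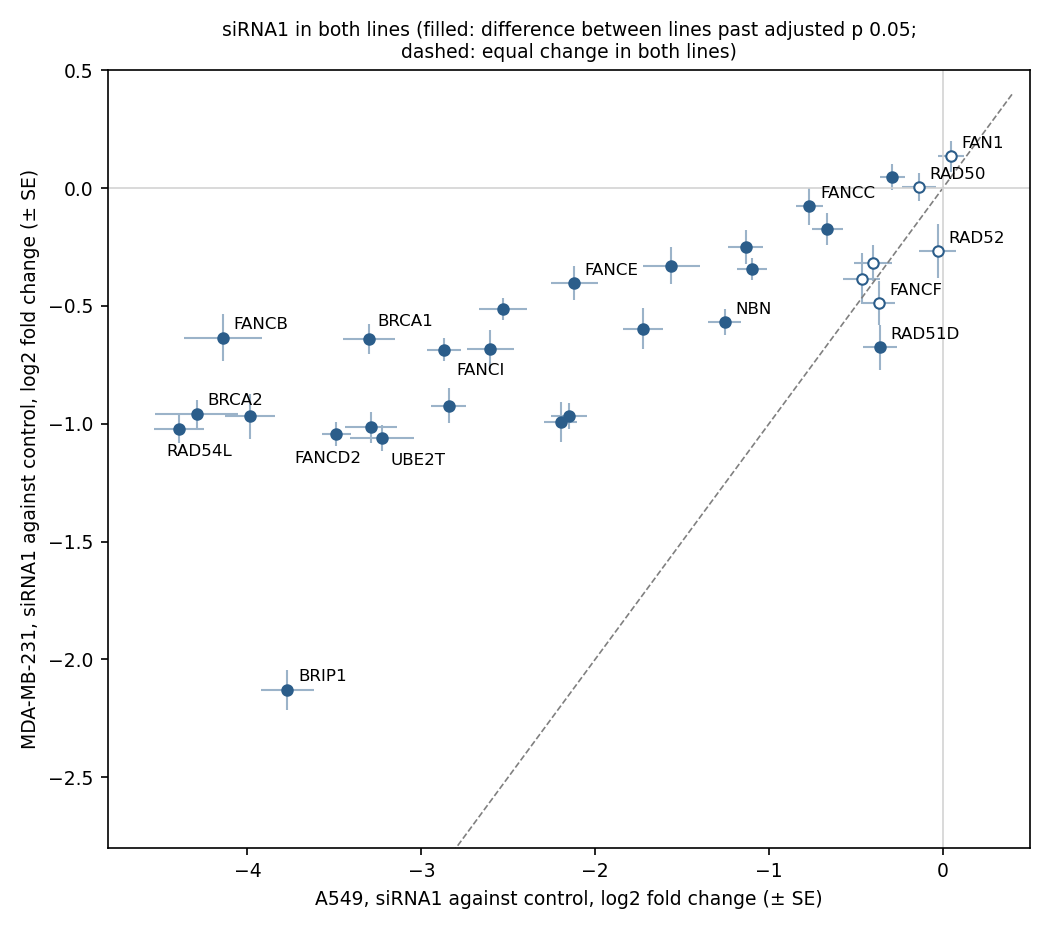
Log2 fold change (± SE) of siRNA1 against control for the 31 genes, A549 on the horizontal axis and MDA-MB-231 on the vertical, with filled points for genes whose difference between the lines passed an adjusted p of 0.05. Most points lie above the dashed line of equal change, BRIP1 lies lowest at -3.77 in A549 and -2.13 in MDA-MB-231, and FAN1, RAD50, RAD52 and FANCF lie near the line with unfilled points.

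Levels in the controls show where each line started. In A549 control cells UBE2T led, at 232 ± 22 TPM (SD, n = 3), ahead of FANCI, at 107 ± 6.17 TPM, and RAD51C, at 97.9 ± 8.34 TPM. In MDA-MB-231 control cells UBE2T led too, at 188 ± 3.89 TPM, ahead of USP1, at 128 ± 10.4 TPM, and RBBP8, at 95.3 ± 5.0 TPM. The lowest were FANCE in A549, at 5.37 ± 0.585 TPM, and FANCF in MDA-MB-231, at 5.75 ± 0.376 TPM. FANCI and RAD51C in A549 differed by less than the sum of their SDs.

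In A549 controls against MDA-MB-231 controls, 20 genes were higher in A549 and 6 lower, where 45.3% of 14896 genes were higher and 38.5% lower. On log2 TPM with a pseudocount of 1 the split was 15 higher and 11 lower. The median log2 difference was 0.42, beside 0.10 over all genes. RAD51C, at 1.50 ± 0.09, BRCA1, at 1.44 ± 0.07, RAD54B, at 1.40 ± 0.08, and NBN, at 1.33 ± 0.08, were the highest in A549. FANCE was lowest, at -1.98 ± 0.09. FANCE had 6.66, 6.89 and 7.87 CPM in A549 controls, against 32.6, 31.4 and 28.9 CPM in MDA-MB-231 controls. Every A549 library was below every MDA-MB-231 library, although these CPM were scaled within each line and not across the lines. RBBP8, at -0.82 ± 0.07, USP1, at -0.65 ± 0.09, and RAD54L, HELQ and BRIP1, between -0.38 and -0.32, were lower in A549 as well.

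**Figure D4:**
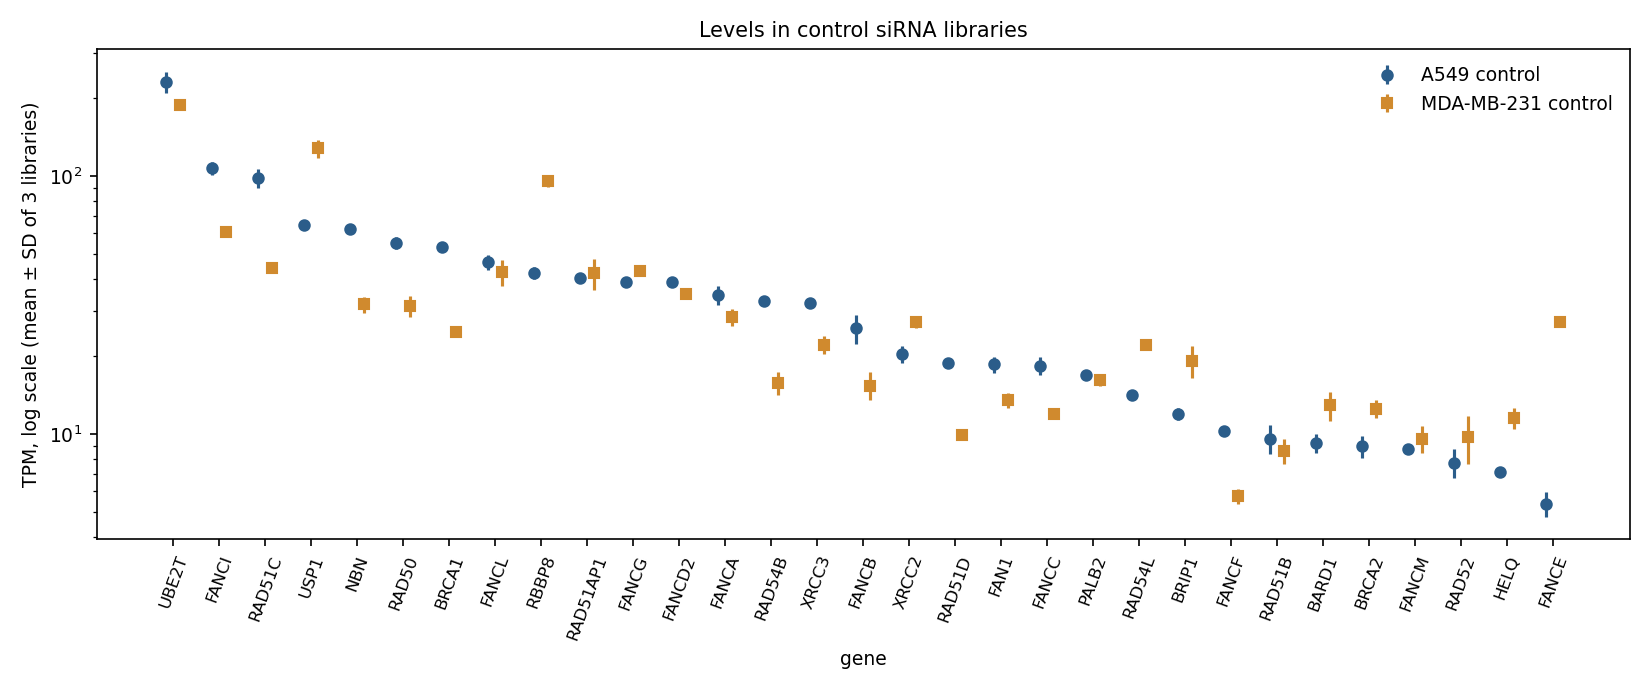
Mean TPM (± SD, n = 3 libraries) of the 31 genes on a log axis, ordered by the A549 mean, with circles for A549 controls and squares for MDA-MB-231 controls. UBE2T is the highest in both lines, at 232 TPM in A549 and 188 TPM in MDA-MB-231, and FANCE, the last gene on the axis, shows the widest gap with the A549 point below.

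Neighbouring repair steps were taken from lists that do not hold the 31, and their counts stand beside the shares of all genes given above. Of 24 other recombination genes, 21 were lower and 1 higher in A549 siRNA1, with a median of -1.70. The resection nuclease EXO1 was at -5.74. With siRNA2, 20 of the 24 were lower and 1 higher, with siRNA3 20 lower and none higher, and in MDA-MB-231 17 of 23 lower and 2 higher, with medians of -0.61, -0.72 and -0.50. Of 11 other Fanconi genes, 8 were lower and 2 higher in A549 siRNA1, with a median of -0.56, among them the ligase RFWD3, at -1.46. With siRNA2 8 were lower and none higher, with siRNA3 7 were lower and none higher, and in MDA-MB-231 4 were lower and 1 higher, with a median of -0.07 beside 29.8% of all genes lower. End joining genes serve the rival route. In A549 siRNA1, 10 of 12 were lower and 1 higher, with a median of -0.68 and the Ku subunits XRCC5 at -1.58 and XRCC6 at -1.46. With siRNA2 8 were lower and 2 higher, with siRNA3 6 lower and 2 higher, and in MDA-MB-231 7 were lower and 3 higher, with a median of -0.36. The BRCA1-A complex, which restrains resection had 2 of 5 genes lower and none higher in A549 siRNA1, 3 lower and 2 higher with siRNA2, 2 lower and 3 higher with siRNA3, and 1 lower and 1 higher in MDA-MB-231.

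Genes of S phase and cell division moved with the 31 genes in every siRNA group. All 13 were lower in A549 siRNA1, with a median of -3.52, 12 with siRNA2, with a median of -1.17, 13 with siRNA3, with a median of -0.95, and 13 in MDA-MB-231, with a median of -1.01, and none was higher. The proliferation marker MKI67 was at -5.71, the cyclin CCNA2 at -5.51 and the kinase CDK1 at -5.09 in A549 siRNA1. Their summed level was 677 to 729 TPM with siRNA1, 1677 to 1712 TPM with siRNA2 and 1404 to 1610 TPM with siRNA3, against 2899 to 3076 TPM in A549 controls, and 1043 to 1086 TPM in MDA-MB-231 with siRNA1, against 2368 to 2404 TPM in controls. The part of cycling cells in the lower levels of recombination and Fanconi genes was not tested.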

How the data were processed

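RNA was measured by sequencing of ribosome-depleted, stranded libraries, per the labels' protocols. For each of 27968 gene symbols the authors deposited an expected count, a TPM and an FPKM value, made with RSEM on hg19 (per the submitters' processing notes). The software version, read aligner and gene annotation were not given in the sources used here. Of the expected counts, deposited estimates of reads per gene, 10.2% to 11.8% were not whole. TPM values, as deposited, are relative to transcript length and library total, and the deposited FPKM values were not used. Expected counts, 30143047 to 40328208 per library, were rounded. Genes with a CPM of at least 1 in 3 or more libraries of a fit were tested with edgeR 4.0.16 (R 4.3.3): TMM scaling, group means, quasi-likelihood F test, Benjamini-Hochberg over all genes tested, called at 0.05. Printed CPM values use the TMM library sizes of the separate A549 and MDA-MB-231 fits, so they are not on a common scale between the lines. Separate fits covered the 12 A549 libraries, the 6 MDA-MB-231 libraries, and the 12 siRNA1 and control libraries of both lines together, the last for the interaction and the control comparison. Intervals are 1.96 SE either side. Alternatives were DESeq2 1.42.0, limma 3.58.1 (voom, and log2 TPM with a pseudocount of 1 or 0.1), other size factors and filters, a replicate block, fits of only 2 groups and leaving out each library. The 3 edgeR fits were tested on simulated counts in which a small share of genes was changed, in a single group. That setting cannot show how the fits perform where as many genes change as were called here.

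The genes and lists were chosen with earlier results of these data known. Per-library values are given for the 3 lowest and 3 highest genes of each siRNA comparison and of the interaction, and other genes by role. Other lists name up to 3 genes with the largest change in A549 siRNA1. Promoter windows shown are those of the 2 lowest and 2 highest genes by mean log2 fold change, leaving out chromosome 8. The 2 others, chosen after the motif search, are the lowest by that mean of the 3 genes with TTTCCCGC. RefSeq promoters are on GRCh38.p14 and were matched by symbol only, since the counts were made on hg19.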

Additional observations from a re-analysis of the deposited data

Results flagged for a closer look

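The effect of siRNA1 against control differed between A549 and MDA-MB-231 for 25 of the 31 genes, by an interaction in edgeR's quasi-likelihood test with Benjamini-Hochberg adjustment over all genes. Of the 25, 24 were lower and 1 higher, beside 34.1% of all 14896 genes lower and 29.3% higher, so differences between the lines were common among all genes. Values are the log2 fold change in A549 minus that in MDA-MB-231. In the BRCA1 complex and its mediators the difference was -2.70 for BRCA1, -3.37 for BRCA2, -0.37 for PALB2, -1.95 for BARD1 and -1.68 for BRIP1. Among BCDX2 and CX3 genes it was 0.28 for RAD51D, -2.31 for XRCC2 and -1.16 for XRCC3. Among strand exchange partners it was -3.41 for RAD54L, -1.24 for RAD54B and -3.05 for RAD51AP1. In the Fanconi core complex it was -1.95 for FANCA, -3.54 for FANCB, -0.72 for FANCC, -1.75 for FANCE, -1.22 for FANCG, -0.92 for FANCL, -1.27 for FANCM and -2.20 for UBE2T. For the ubiquitinated pair and its deubiquitinase it was -2.48 for FANCD2, -2.22 for FANCI and -2.05 for USP1. Of the resection and crosslink processing genes it was -0.72 for NBN, -0.79 for RBBP8 and -0.53 for HELQ. BLM itself was at 1.17 to 1.2 CPM with siRNA1 in A549 and at 5.08 to 5.25 CPM with siRNA1 in MDA-MB-231, and the part of that depth of knockdown was not tested.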

How the results depend on the processing

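The count of lower genes stayed within 1.5 times in every siRNA against control comparison, under each alternative run: 25 to 28 in A549 siRNA1, 23 to 27 with siRNA2, 24 to 26 with siRNA3, and 23 to 26 in MDA-MB-231. For the interaction it was 22 to 24. Small counts moved more. With upper quartile scaling, siRNA1 against siRNA3 had 5 higher, siRNA2 against siRNA3 had 3 lower, and MDA-MB-231 had 1 higher. On log2 TPM, with either pseudocount, A549 siRNA1 had 1 higher, siRNA1 against siRNA2 had 5 higher, siRNA1 against siRNA3 had 5 higher, siRNA2 against siRNA3 had 3 lower, MDA-MB-231 had 1 higher and the interaction 2 higher, and with a pseudocount of 1 the control comparison had 11 lower. RAD52 in A549 siRNA1 was at 0.28 with a pseudocount of 1 and at 0.31 with 0.1, beside -0.03 in edgeR (limma, adjusted p = 0.0269 and 0.0280). On that scale the median of all genes in A549 siRNA1 was 0.25, beside 0.04 in edgeR, and FANCF, PALB2 and RAD51D lost their calls there. The fit of only 2 groups gave 3 lower in siRNA2 against siRNA3. Leaving out single libraries gave 3 to 9 lower in siRNA2 against siRNA3, 0 to 1 higher in siRNA3 against control, 2 to 4 higher in siRNA1 against siRNA3, and 0 to 2 higher in the interaction. The cause was not tested.

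Deviations of same-numbered libraries from their group means correlated at -0.552 to 0.315 in A549 and -0.234 to 0.147 in MDA-MB-231. These values cannot show whether same-numbered libraries were prepared together, because deviations also carry differences tied to transcript length. With the number as a replicate block, 28, 26, 24 and 26 genes were lower with A549 siRNA1, siRNA2, siRNA3 and MDA-MB-231 siRNA1, RAD52 was called lower in MDA-MB-231 at -0.26 (adjusted p = 0.0494, edgeR), and the interaction had 0 higher. RAD54L, BRCA2 and FANCB rest on few reads in A549 siRNA1, at 0.819 to 3.72 CPM.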
